A study of Mus musculus with 3 samples.

Results

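The 9 genes described here encode transcription factors that specify or maintain the macrophage lineage. They are Spi1 (PU.1), Cebpa, Cebpb, Cebpd, Maf, Runx1, Fli1, Klf4 and Klf6, a set given by symbol. No score or site entered its rule, but it was drawn up with earlier results of these data known. Their sites were the entries of the deposited list of predicted m6A sites that lay inside the span of one of these genes on its strand (GENCODE M21, GRCm38). Of the 19301 sites in the list, 42 met this rule. They fell in 8 of the 9 genes, and Maf had none. Across the annotation, 23.1% of protein-coding genes (5080 of 21951) had at least 1 site in their span.

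Poly(A)+ RNA of untreated RAW 264.7 cells, an established mouse macrophage line, had been profiled by miCLIP2 in 3 replicates, with no second condition. The series description calls the line human, whereas the organism label is mouse and all 19301 listed positions were an A in the mouse genome. In miCLIP2, an m6A antibody is crosslinked to the RNA and reverse transcription stops next to the crosslinked base. The classifier m6Aboost then scores each peak at an A, and the authors deposited the sites above 0.5 as a single list pooled over the replicates. The score states how firmly the model called a site and is not a methylation level. The list carries no read counts, so depth per site, spread between replicates and transcript abundance are unknown, and an absent site cannot be told apart from an RNA with too few reads. Intervals below are 95% Wilson intervals and cover counting error only.

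m6A is written onto nascent mRNA by the METTL3-METTL14 complex, mostly at the consensus DRACH (D is A, G or T; R is A or G; H is A, C or T), and is known to lie preferentially in long exons and close to the stop codon. Reader proteins of the YTH family bind the mark and shorten the life of many transcripts. Spi1 is the ETS factor without which macrophages do not form, and the C/EBP factors are basic leucine zipper proteins that act with it on myeloid genes. Runx1 is a factor required for blood stem cell emergence, Fli1 is an ETS factor of the blood and endothelial lineages, and Klf4 and Klf6 are zinc finger factors, the former linked to monocyte differentiation.

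Each site was placed on the transcript of its gene with the longest CDS. In the sequences below, 21 nt of GRCm38 are given 5′ to 3′ on the strand of the gene, with the pentamer around the site in capitals and the site as its central A. The first set shows the 6 sites of Spi1, all at GGAC followed by A, C or T, of which 5 lay close together behind the stop codon.
Spi1 CDS, chromosome 2 at 91115141: gacatgaaGGACAgcatctgg
Spi1 3′ UTR, chromosome 2 at 91115462: cccggcccGGACAcagggagg
Spi1 3′ UTR, chromosome 2 at 91115473: cacagggaGGACAttcccagg
Spi1 3′ UTR, chromosome 2 at 91115495: ccgaggcaGGACTgggggccc
Spi1 3′ UTR, chromosome 2 at 91115563: tcccaccaGGACTctagcccg
Spi1 3′ UTR, chromosome 2 at 91115598: tgggcctcGGACCtcaaccga

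The second set shows the site with the highest score in each of the other genes. These were GGACT in Cebpa, Cebpb, Runx1 and Fli1, GAACT in Cebpd and Klf4, and TGACT in Klf6.
Cebpa 3′ UTR, chromosome 7 at 35120603: gcaagccaGGACTaggagatt
Cebpb 3′ UTR, chromosome 2 at 167690106: gggtttcgGGACTtgatgcaa
Cebpd CDS, chromosome 16 at 15887564: gccacgacGAACTcttcgccg
Runx1 3′ UTR, chromosome 16 at 92605630: ccatcgagGGACTgggcctgc
Fli1 3′ UTR, chromosome 9 at 32423292: tcttcggaGGACTcaattcag
Klf4 CDS, chromosome 4 at 55528239: gctccgatGAACTgaccaggc
Klf6 3′ UTR, chromosome 13 at 5867604: tctattacTGACTgtatggtg

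The third set shows the 3 sites outside DRACH, none of which scored above 0.580.
Cebpa 3′ UTR, chromosome 7 at 35120799: tgccttggATACTcaaaactc
Klf4 3′ UTR, chromosome 4 at 55527857: ggggtctgATACTggatggat
Klf6 3′ UTR, chromosome 13 at 5867556: gagcatgcGCACTgagaatgt

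Over the 8 genes, 23 of the 42 sites (54.8%, 39.9 to 68.8%) lay in the 3′ UTR, 16 (38.1%, 25 to 53.2%) in the CDS, 1 in a 5′ UTR and 2 in an intron of the chosen transcript. All protein-coding genes, placed in the same way, had 42.1% of their sites in 3′ UTRs and 49.8% in coding sequence. The interval for the 3′ UTR share of the lineage factors included the value of all genes, and so did the interval for the CDS share. These shares depend on the transcript. With the transcript of the longest span among those passing the support filter of the study, the 3′ UTR share was 16.7% and the CDS share 21.4%, and none of the sites of Spi1, Cebpa, Cebpb and Cebpd lay in an exon. The chosen transcripts of these C/EBP genes have no support level in the annotation, which was counted here as failing the filter, and Cebpa-202, which also holds the Cebpa sites in an exon, has level 5. How the study treated such transcripts is not given in the sources used here. Spi1-201 passed it, but Spi1-204 has the longer span. No site lay in a second gene on the same strand.

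**Figure D1:**
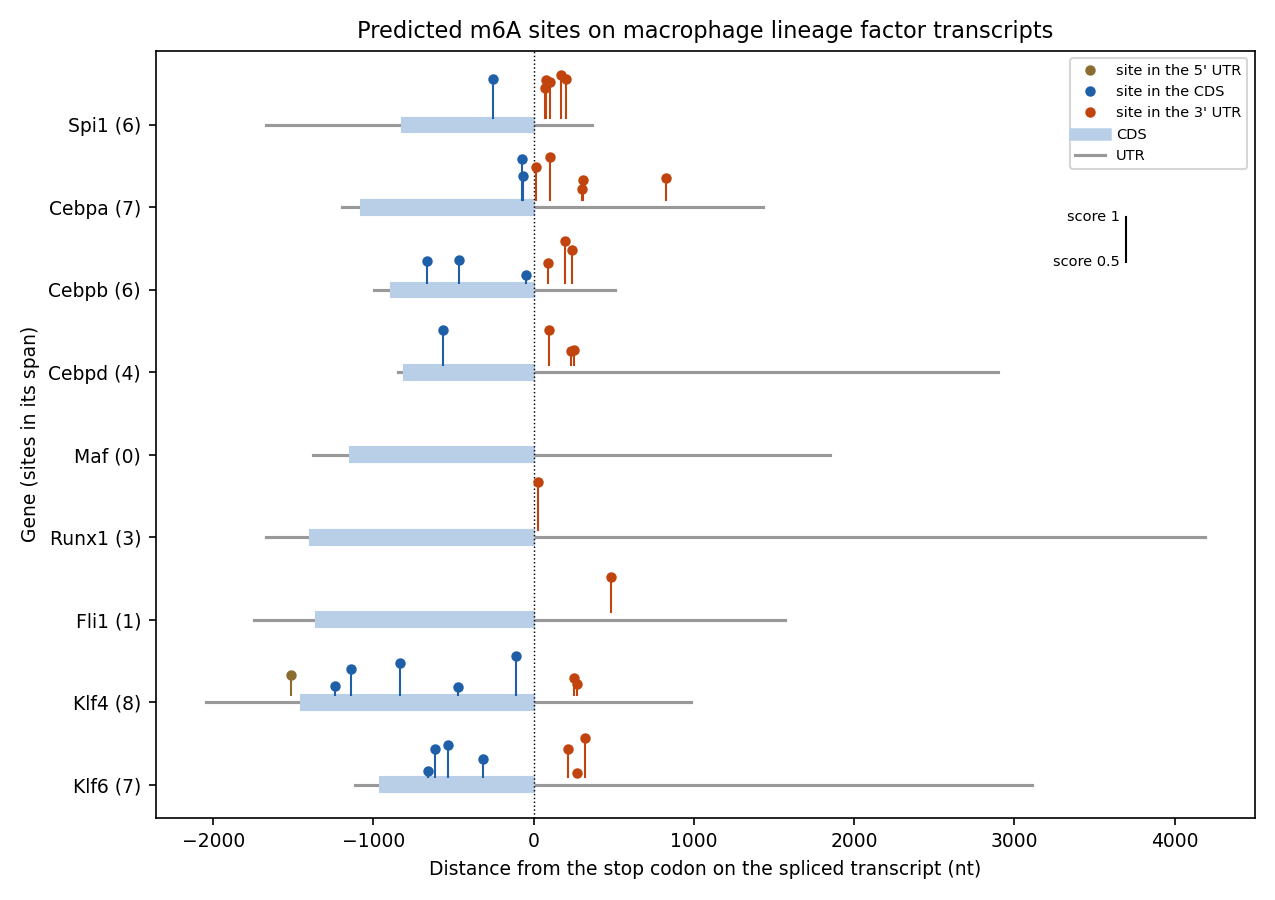
Sites on the transcript with the longest CDS of each gene, drawn to scale in nt from the stop codon (dotted line); thick bars are CDS, thin lines UTRs, and the height of each stem is the prediction score on the scale at the right. Of the 3′ UTR sites, 21 of 23 lie in the first 400 nt, where the 5 of Spi1 must lie, as its 3′ UTR has 362 nt. The 2 Runx1 sites in an intron are not drawn.

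Spi1 (ENSMUSG00000002111.8, chr2:91082390-91115756, plus strand) carried 6 sites, and all of them lay in the last of its 5 exons. The CDS site was 251 nt before the stop codon, in codon 189, and had a score of 0.877. The 3′ UTR sites followed at 68, 79, 101, 169 and 204 nt behind it, with scores of 0.784, 0.866, 0.845, 0.921 and 0.882. All 6 thus scored above the median of the whole list, 0.734, which among the other genes held for the single site of Fli1 alone. Its median of 0.872 was the highest of the genes with several sites. The 3′ UTR is short, at 362 nt, and holds 10 DRACH motifs, of which 5 were listed. In all protein-coding genes with a site, 13.4% of motifs in the first 400 nt of the 3′ UTR were listed. In the 5′ UTR of Spi1 0 of 18 motifs were listed and in the CDS 1 of 13, against 2.35% and 4.55% in those genes, so counts near 0 are usual there. Of the 4 annotated transcripts, Spi1-201 was the only one with these 6 positions in an exon.

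The 3 C/EBP genes consist of 1 exon in the chosen transcripts, so none of their sites can lie near an exon junction. Cebpa, a brake on the cell cycle in myeloid progenitors (ENSMUSG00000034957.10, chr7:35119293-35121928, plus strand), carried 7 sites. Of these, 2 lay in the CDS 73 and 68 nt before the stop codon, with scores of 0.906 and 0.720. They were 5 nt apart, near the end of the coding sequence. The other 5 lay 17, 105, 301, 308 and 827 nt into the 3′ UTR with scores of 0.815, 0.925, 0.580, 0.675 and 0.695. The highest score of the gene was thus at the GGACT 105 nt behind the stop codon, and the site at 827 nt lay farthest into a 3′ UTR of all 42.

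Cebpb, which takes part in the inflammatory gene programme of macrophages, carried 6 sites (ENSMUSG00000056501.3, chr2:167688915-167690418, plus strand). Its CDS sites were 665, 464 and 50 nt before the stop codon, with scores of 0.696, 0.70 and 0.542. Its 3′ UTR sites were 89, 194 and 242 nt behind it, with scores of 0.667, 0.913 and 0.808. The 3′ UTR sites at 194 and 242 nt therefore stood above the others, all of which were below the list median. With 17 DRACH motifs in 1504 nt, 6 of them listed, Cebpb had both the largest share of listed motifs among the 9 genes, 35.3%, against 4.63% in all protein-coding genes with a site, and the most exonic sites per length, 3.99 per kb. The median over protein-coding genes with a site was 0.880 per kb, with quartiles of 0.448 and 1.67.

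Cebpd, an acute phase response factor (ENSMUSG00000071637.5, chr16:15887286-15891031, plus strand), carried 4 sites. The CDS site, 565 nt before the stop codon, had a score of 0.839. The 3′ UTR sites were at 94, 236 and 249 nt with scores of 0.836, 0.605 and 0.621. The gene has the longest 3′ UTR of the C/EBP members, 2900 nt. Beyond the first 400 nt of it 0 of 61 DRACH motifs were listed. In all protein-coding genes with a site 2.23% were listed there, so a count near 0 is usual.

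Since the C/EBP proteins share their DNA-binding and zipper regions, the coding sites of one gene were set on the coding sequence of another by the best in-frame match without gaps over 31 nt, a comparison chosen after the sites were seen. The Cebpa site 73 nt before the stop codon matched Cebpb at 21 of 31 bases, 67 nt before its stop codon, where Cebpb reads GAGCT. The Cebpb site 50 nt before the stop codon matched Cebpa at 20 of 31 bases, 56 nt before its stop codon, where Cebpa reads GGGCA. In both, the base opposite the site was not an A. Of all 12 such matches among the 3 genes, with 17 to 21 of 31 bases identical, 10 had another base opposite the site and 2 had an A, the latter at GCACC in Cebpa and GCAGT in Cebpd. Several matches lay far from the site's own distance to the stop codon, so they need not be the same part of the protein. The identity that unrelated stretches reach was not computed, and nothing is read from these counts. The sequences show the first 2 pairs, with the central pentamer in capitals.
Cebpa, site: tgagccgtGAACTggacacgc
Cebpb, counterpart: tgtcgcgaGAGCTcagcaccc
Cebpb, site: accctgcgGAACTtgttcaag
Cebpa, counterpart: acgctgcgGGGCAtcttccgc

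Runx1 held the highest score of the set. The gene (ENSMUSG00000022952.17, chr16:92601466-92826149, minus strand) carried 3 sites. The one at 92605630, a GGACT 25 nt behind the stop codon in exon 8, had a score of 0.988, rank 30 among the 19301 sites. This site lay in the 3′ UTR of 3 of the 7 annotated transcripts. In the 4189 nt of 3′ UTR that the chosen transcript carries, it was the only listed motif among 67 DRACH motifs. That is 1.49%, against 4.99% of 3′ UTR motifs in all protein-coding genes with a site. Within the first 400 nt, 1 of 6 motifs was listed, against 13.4% in those genes. Further out it was 0 of 61, against 2.23%, so a count near 0 is usual there. The other 2 sites, at 92696233 and 92696196, had scores of 0.635 and 0.596. They lay in intron 2 of the chosen transcript Runx1-201, but in the first exon of Runx1-202 and Runx1-206. In Runx1-202, which codes for a protein, that exon placed both in the 5′ UTR. Runx1 is known to be transcribed from a distal and a proximal promoter, and the list alone does not say from which transcripts the reads came.
Runx1 intron 2 or 5′ UTR, chromosome 16 at 92696233: ttttgttgAGACTctaaacaa
Runx1 intron 2 or 5′ UTR, chromosome 16 at 92696196: agaaaaacAAACTgacaggca

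Fli1 (ENSMUSG00000016087.13, chr9:32422204-32542861, minus strand) carried 1 site, a GGACT 484 nt into the 3′ UTR in exon 9, with a score of 0.848. It was 1 of 83 DRACH motifs in the transcript. The 36 motifs of the CDS held none. In all protein-coding genes with a site 4.55% of CDS motifs were listed, so a count near 0 is usual there. Maf is a basic leucine zipper factor expressed in many tissue macrophages (ENSMUSG00000055435.6, chr8:115682942-115707794, minus strand). None of the 58 DRACH motifs of its chosen transcript was listed, and no site lay anywhere in its span. Runx1 and Fli1 had 1.08% and 1.2% of their motifs listed, below the 4.63% of all protein-coding genes with a site, whereas Spi1, Cebpa, Cebpb and Klf4 had at least 10.3%. With 1 motif listed in each, the former values rest on a single site.

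Klf4 had the most sites and the widest spread along the transcript. The gene (ENSMUSG00000003032.8, chr4:55527143-55532466, minus strand) carried 8 sites. The 5′ UTR site in exon 1, the only one of the set in a 5′ UTR of its chosen transcript, had a score of 0.678. In exon 3, CDS sites at codons 71, 104, 206 and 327 had scores of 0.556, 0.741, 0.810 and 0.543. The CDS site in exon 5, at codon 446, reached 0.879. The 3′ UTR sites at 252 and 268 nt had scores of 0.646 and 0.574, the latter at ATACT. The 3 highest scores of Klf4 were thus in the CDS, which also held its 2 lowest, and the gene median was 0.662.

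Klf6, a zinc finger factor known as an early response gene (ENSMUSG00000000078.7, chr13:5861482-5870394, plus strand), carried 7 sites. In exon 2, the CDS sites at codons 99, 113, 140 and 214 had scores of 0.521, 0.768, 0.809 and 0.661. In exon 4, the 3′ UTR sites at 214, 273 and 321 nt had scores of 0.767, 0.508 and 0.887. The coding sites all lay in 1 exon. Beyond the first 400 nt of the Klf6 3′ UTR, 0 of 58 DRACH motifs were listed. The share was 2.23% in all protein-coding genes with a site, so a count near 0 is usual. The score of 0.508, at GCACT, was the lowest of the set and close to the limit of 0.5 for entry into the list.

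**Figure D2:**
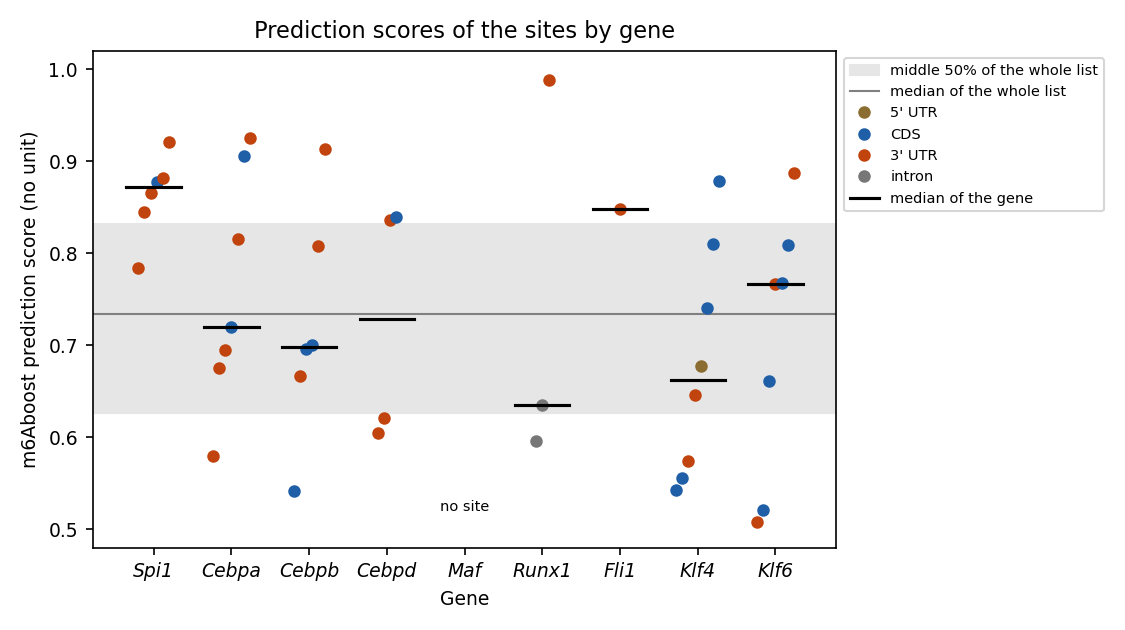
m6Aboost prediction score of each of the 42 sites by gene, coloured by region on the chosen transcript, with the median of each gene (black line) and the median and middle 50% of the whole list (grey). All Spi1 sites lie above the list median of 0.734, while the Klf4 sites run from 0.543 to 0.879.

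The Klf4 site at codon 446 lies in the zinc finger array at the end of the protein, in a stretch that the Klf and Sp factors share. This stretch was searched for in frame, as codons for serine, aspartate, glutamate, leucine, any residue, arginine and histidine, after the site had been noticed. It occurred once in each of 17 Klf and Sp genes, and the third base of the glutamate codon is the position of the Klf4 site. In 7 of these genes the codons read GAACT across this position, a DRACH motif, whereas the codons of the other 10 gave no DRACH motif there. The site was listed in Klf4, with a score of 0.879, and in Klf10, with a score of 0.903, a gene picked out after its value was seen. The 5 further genes with GAACT (Klf1, Klf3, Klf11, Klf12 and Sp2) had no site anywhere in their spans. Over all protein-coding genes the stretch occurred 32 times, and no additional copy read DRACH. Klf6, at the same distance of 112 nt from its stop codon as Klf4, reads GAGTT.
Klf4, listed: gctccgatGAACTgaccaggc
Klf10, listed: gctccgatGAACTgtccagac
Klf6, counterpart: gaagtgatGAGTTgaccagac

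Of the 42 sites, the pentamer GGACT held 10 (23.8%, 13.5 to 38.5%, against 19.4% of the list), GAACT 8 (19.0%, 9.98 to 33.3%, against 13.1%) and GGACC 7 (16.7%, 8.32 to 30.6%, against 6.93%). For GGACC the share of the list lay below the interval. These pentamers are those with most sites among the 42, and several sites share the same transcript, so the counts are not independent. In total 39 of 42 sites (92.9%, 81.0 to 97.5%) lay at DRACH, against 91.9% of the list. The 3 remaining sites were ATACT in Cebpa and Klf4 and GCACT in Klf6, with scores of 0.580, 0.574 and 0.508. The classifier is given the neighbouring bases and the region of the transcript among its inputs, so these shares describe its calls as well as the RNA. Of the 16 CDS sites, 9 lay at the second base of a codon, 5 at the third and 2 at the first, against 48.9%, 26.6% and 24.5% for all protein-coding genes.

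Scores of the 42 sites lay between 0.508 and 0.988. Their median was 0.754 (quartiles 0.638 and 0.848), that of the whole list 0.734 (quartiles 0.627 and 0.832). The 23 sites in 3′ UTRs had a median of 0.808, the 16 coding sites one of 0.731. All protein-coding genes showed the same order, with 0.786 and 0.699. A score of at least 0.9 was reached by 5 sites (11.9%, 5.19 to 25%, against 8.77% of the list), namely 2 in Cebpa and 1 each in Spi1, Cebpb and Runx1.

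The density around the stop codon was then read against the motifs available. Measured along the mRNA, a window of 200 nt to either side of the stop codon held 14 of 40 exonic sites (35%, 22.1 to 50.5%), against 32.4% for all protein-coding genes. On the longest-span transcripts passing the support filter, which leave out all sites of Spi1 and the C/EBP genes, it held 2 of 17 (11.8%). Of the DRACH motifs in the window of 200 nt on the transcripts with the longest CDS, 14 of 63 (22.2%) were listed in the 8 genes. The share was 12.7% in all protein-coding genes with a site. Most of the 14 came from Spi1 (4 of 9), Cebpa (4 of 11) and Cebpb (3 of 4). Cebpd and Runx1 had 1 of 6 each, Fli1 0 of 10, Klf4 1 of 12 and Klf6 0 of 5. In the first 400 nt of the 3′ UTR, 18 of 67 motifs (26.9%) were listed, against 13.4%. Most of the 18 came from Spi1 (5 of 10), Cebpa (3 of 8), Cebpb (3 of 6) and Cebpd (3 of 8). Runx1 had 1 of 6, Fli1 0 of 7, Klf4 1 of 14 and Klf6 2 of 8. Beyond the first 400 nt, 2 of 248 (0.806%) were listed, against 2.23%, and these were the site of Fli1 at 484 nt and that of Cebpa at 827 nt. The limit of 400 nt was applied to the 3′ UTR after the sites were seen. In counts of sites, 21 of 23 3′ UTR sites (91.3%, 73.2 to 97.6%) lay in the first 400 nt, against 66.4% for all protein-coding genes. The 5 of them in Spi1 could not lie further out, as its 3′ UTR has 362 nt, and that of Cebpb has only 506 nt. Part of this count was thus fixed by length, and nothing is read from the interval. Several sites share 1 transcript, so they are not independent counts. The 3′ UTRs of the 8 genes ran from 362 nt in Spi1 to 4189 nt in Runx1. Whether reads covered their distal parts was not tested, since the list has no coverage.

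**Figure D3:**
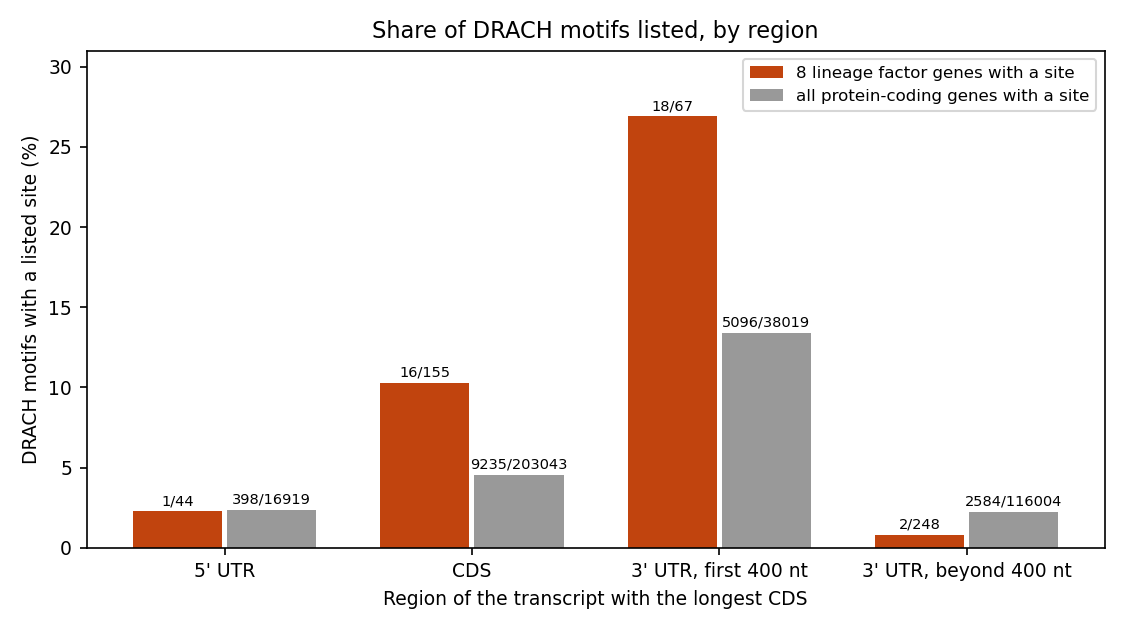
Percent of DRACH motifs on the transcript with the longest CDS that had a listed site, by region, for the 8 lineage factor genes with a site and for all protein-coding genes with a site; numbers above the bars are motifs listed over motifs present. In the first 400 nt of the 3′ UTR the shares were 26.9% and 13.4%, and beyond it 0.806% and 2.23%. Most of the 18 motifs listed in the first 400 nt lay in Spi1 and the C/EBP genes.

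The 17 sites of the C/EBP genes lay in the last exon by construction. In the genes with more than 1 exon, the last exon held 14 of 23 exonic sites (60.9%, 40.8 to 77.8%), against 67.4% for all protein-coding genes placed on such transcripts. The exceptions were 5 sites in exons 1 and 3 of Klf4 and 4 in exon 2 of Klf6. Of the same 23 sites, 18 (78.3%, 58.1 to 90.3%) lay over 100 nt from an exon junction, against 87.1% for all protein-coding genes. The 5 nearer sites were 66 nt from a junction in Spi1, 61, 70 and 85 nt in Klf4, and 90 nt in Klf6. Of the DRACH motifs within 100 nt of a junction, 5 of 84 (5.95%) were listed, against 1.41% in all protein-coding genes with a site. Of the motifs further away, 16 of 292 (5.48%) were listed, against 6.80%. Klf4 supplied 3 of the 5 nearer sites, at 3 of its 18 such motifs.

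Of the 32 gaps between neighbouring exonic sites, 6 (18.8%) were at most 25 nt, against 17.8% for all protein-coding genes. The shortest gap on the transcript was 5 nt in Cebpa, 11 nt in Spi1, 13 nt in Cebpd, 16 nt in Klf4, 44 nt in Klf6 and 48 nt in Cebpb, while the longest gap of these genes ran from 321 nt in Spi1 to 661 nt in Cebpd. Whether such neighbours are separate modified bases or calls on 1 crosslink cannot be read from the list.

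Related factors were taken from 6 lists totalling 73 genes, of which 43 (58.9%) had a site, against 23.1% of protein-coding genes. The list gives no abundance, and lists of factors known from myeloid cells were chosen with earlier results at hand, so these shares are descriptions. Of the ETS family relatives of Spi1 and Fli1, 10 of 16 genes had a site. Etv3 had 8 sites, Ets2 had 6 and Elk3 had 5, with median scores of 0.793, 0.771 and 0.877. In the list drawn up as C/EBP and partners, not all of whose genes need be C/EBP relatives, 5 of 6 genes had a site. There were 9 in Nfil3, 8 in Cebpz and 4 in Cebpg, all but 3 of Cebpg in the CDS.

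Some Maf relatives contrasted with Maf itself. Bach1, a partner of the small Maf factors and repressor of heme oxygenase, had 11 sites, 8 of them in the CDS. The small Maf genes Mafk and Mafg had 10 and 6, of which 9 and 5 lay in the 3′ UTR. In all, 3 of these 6 genes had a site. Among Runx1 relatives and core binding factor partners 2 of 6 did (33.3%), namely Cbfb with 3 sites and a median of 0.938, the partner subunit of the Runx proteins, and Cbfa2t2 with 2 sites. Runx2 and Runx3 had none.

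Of the Klf and Sp relatives, 8 of 15 had a site. Klf13 had 13, all in the 3′ UTR, with a median score of 0.823. Sp1 had 7, all in the CDS, with a median of 0.667, and Klf9 had 4, all in the 3′ UTR. Of 24 further myeloid factors 15 had a site, with 8 in Bhlhe40, 7 in Rara and 7 in Mitf. The 8 lineage factors with a site had between 1 and 8, while protein-coding genes with a site had a median of 3 and quartiles of 1 and 5.

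**Figure D4:**
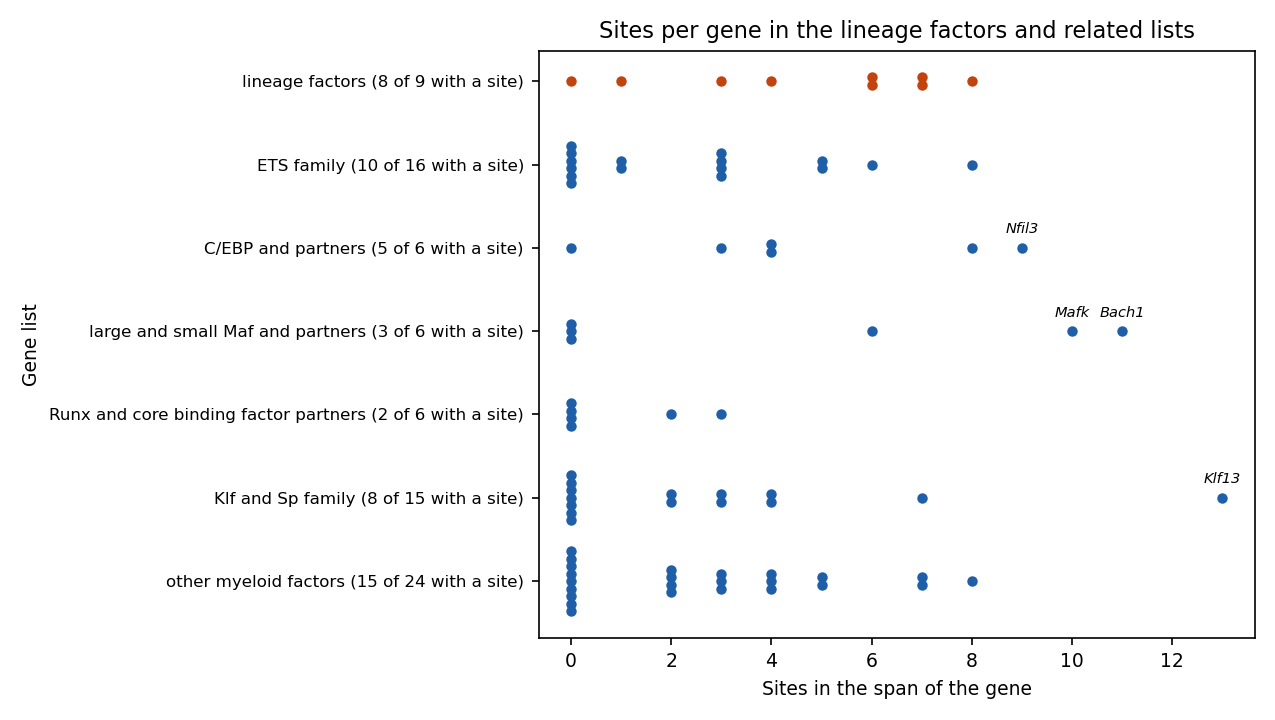
Number of sites in the span of each gene, for the 9 lineage factors (orange) and the 6 lists of related factors (blue); each point is 1 gene and names mark genes with 9 or more sites. Klf13 reaches 13 sites, whereas no lineage factor exceeds 8.

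The label of the cells was read against marker genes. Of 12 macrophage markers 7 had a site (58.3%, against 23.1% of protein-coding genes), with 17 in Mpeg1, 13 in Cd14, 11 in Csf1r, 7 in Tlr4, 5 in Ctsd, 2 in Lyz2 and 1 in Fcer1g. The other markers of that list, Cd68, Itgam, Adgre1, Fcgr3 and Mrc1, had none. Of 12 markers of other cell types, 0 had a site. A site requires the RNA to be present, but a gene without one may still be expressed, as the list holds modified positions and not levels.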

How the data were processed

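Poly(A)+ RNA of 3 replicates of 1 untreated group was profiled by miCLIP2. Per the labels and methods, the authors mapped reads with STAR (2.7.3a) to GRCm38.p6, removed duplicates by molecular identifier with UMI-tools (1.0.0), called PureCLIP peaks per replicate, kept those in at least 2 replicates, and deposited as 1 pooled list the sites whose m6Aboost prediction score exceeded 0.5. Positions were read as 0-based starts and are given 1-based. Genes came from GENCODE M21 (the authors used M23, same build). Each site was placed on the transcript with the longest CDS, ties going to the longest spliced; "all protein-coding genes" were placed likewise, and a site in several genes counted in each. A stop codon counted as CDS. Placement was tested on simulated data, with 100% of 5000 sites in 1000 genes recovered. Python 3.11.15, NumPy 2.4.6, SciPy 1.17.1, pysam 0.24.0 and matplotlib 3.10.9 were used.

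The members and gene lists were chosen with earlier results of these data known. All members, the 3 genes with most sites of each related list and every marker with a site are named, ties going to the higher median score. No test was run: the list is pooled, has no counts, and gives no depth or error per site. Alternatives covered the minimum score, collapsed sites, overlapping genes, motif, transcript, window and junction distance. Of the related lists, 1 gene is not reported here and was left out of their counts. Protein sequences were not used here.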

Additional observations from a re-analysis of the deposited data

How the results depend on the processing

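No paired analysis was possible because the deposited sites carry no replicate of their own and come from a single condition. Leaving out a replicate was likewise not run. By construction a higher score leaves fewer sites: 23 at 0.7 and 5 at 0.9, and 18 related factor genes with a site at 0.9. At 0.7, 100% of sites were at DRACH and 52.2% within 200 nt of the stop codon; the cause of the latter was not tested. A window of 400 nt held 67.5%. With the transcript of the longest span passing the support filter of the study, the CDS share was 21.4%, the 3′ UTR share 16.7% and the share within 200 nt of the stop codon 11.8%. With a missing support level counted as failing, that choice gave no transcript for Cebpa and Cebpb, one without CDS for Cebpd and, by its span, Spi1-204 for Spi1 although Spi1-201 also passed, so none of their 23 sites was in an exon. The other alternatives run stayed within the 95% interval of the share or within 1.5 times the count. Depth per site is unknown.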
